A study of Homo sapiens with 14 samples.

Results

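The genes for U6, U6atac and 7SK RNA were examined for chromatin occupancy by RNA polymerase III and by the progesterone receptor (PR). The 7 genes, RNU6-1, RNU6-2, RNU6-7, RNU6-8, RNU6-9, RNU6ATAC and RN7SK, were chosen by name as RNA polymerase III genes with upstream promoters, out of 58419 annotated genes on chromosomes 1 to 22 and X. Chromatin immunoprecipitation sequencing had been done in T47D, an established breast cancer cell line that the labels describe as positive for oestrogen receptor and PR. The antibodies were against PR and against POLR3A, the catalytic largest subunit of RNA polymerase III. Every group was exposed for 1 h, to ethanol as the vehicle or to progesterone (P4), and no genetic change is named. The labels list 14 libraries, with 3 replicates for each antibody and treatment and 1 pooled input for each treatment, all from a single cell line.

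Most RNA polymerase III genes carry their promoter inside the transcribed sequence. U6, U6atac and 7SK genes are exceptions, since a distal sequence element, a proximal sequence element and a TATA box lie upstream of the start. The proximal element binds the snRNA activating protein complex SNAPc, which RNA polymerase II genes for other small nuclear RNAs also use, and the polymerase III version of the promoter recruits the initiation factor BRF2. U6 RNA is a catalytic part of the major spliceosome, U6atac takes its place in the minor spliceosome, and 7SK RNA holds the elongation factor P-TEFb in an inactive particle with HEXIM1. PR is a nuclear receptor that binds DNA when progesterone is present and is the main mediator of that hormone in breast epithelium.

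The data are 4 peak lists. A list stands for an antibody under a treatment, and how the 3 replicates entered it is not given. No region could be set against the spread between replicates, no p-value between treatments is given, and the read depth is unknown. Each region carries the peak caller's own fold enrichment over background and its −log10 q, the strength of the call on a scale where higher is stronger. Both are the authors' values and were used to describe and rank regions within a list. The lists held 29161 POLR3A regions under vehicle and 47904 under P4, and 38933 PR regions under vehicle and 111515 under P4. A gene counted as occupied when a region reached its body or the 100 bp on either side.

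RNU6-1 lay on chromosome 15 (67839939 to 67840045) and RNU6-7 and RNU6-8 lay on chromosome 14 (32202045 to 32202151 and 32203163 to 32203269), all in GRCh38. RNU6-9 (893484 to 893590) and RNU6-2 (1021522 to 1021628) were on chromosome 19. RNU6ATAC was on chromosome 9 (134164439 to 134164564) and RN7SK on chromosome 6 (52995620 to 52995951). The annotation classes all 7 as small nuclear RNA genes, with bodies of 107 bp for the 5 U6 genes, 126 bp for RNU6ATAC and 332 bp for RN7SK. The gene table gives no strand for them, so positions below are along the chromosome and not relative to the direction of transcription. RNU6ATAC lay within the long non-coding RNA gene LOC124902297, and no other annotated gene overlapped a body. The nearest protein-coding gene was 398 bases from RNU6-2 (TMEM259), 296 bases from RNU6-9 (MED16) and 335 bases from RN7SK (GSTA4). It was 4470 bases from RNU6ATAC (WDR5) and 5356 bases from RNU6-1 (SKOR1), while ARHGAP5 was 42316 bases from RNU6-7 and 43434 from RNU6-8.

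The coding genes beside RNU6-2, RNU6-9 and RN7SK are on the minus strand and start on the side that faces the small RNA gene. The sequence upstream of each coding start is therefore also the DNA next to the small RNA gene. It is shown because POLR3A regions covered most or all of it: 100% of each window under vehicle, and under P4 76% beside RNU6-2, 100% beside RNU6-9 and 70.8% beside RN7SK. The windows are the 250 bases upstream of TMEM259 (chr19:1021124-1021373), MED16 (chr19:893188-893437) and GSTA4 (chr6:52995285-52995534), from RefSeq on GRCh38.p14, minus strand, 5′ to 3′. Their first printed base is 148 bases from the body of RNU6-2, 46 bases from RNU6-9 and 85 bases from RN7SK. Capitals mark matches to the motifs searched.
TMEM259, beside RNU6-2: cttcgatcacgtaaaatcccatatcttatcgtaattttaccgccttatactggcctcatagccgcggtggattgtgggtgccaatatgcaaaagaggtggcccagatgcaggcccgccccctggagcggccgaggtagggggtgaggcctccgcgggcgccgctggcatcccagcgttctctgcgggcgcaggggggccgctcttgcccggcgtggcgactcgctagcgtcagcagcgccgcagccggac
MED16, beside RNU6-9: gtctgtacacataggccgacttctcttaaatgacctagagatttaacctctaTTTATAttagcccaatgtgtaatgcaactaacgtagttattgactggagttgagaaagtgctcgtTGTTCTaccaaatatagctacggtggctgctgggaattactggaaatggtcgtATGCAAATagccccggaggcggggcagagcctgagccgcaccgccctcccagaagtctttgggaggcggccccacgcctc
GSTA4, beside RN7SK: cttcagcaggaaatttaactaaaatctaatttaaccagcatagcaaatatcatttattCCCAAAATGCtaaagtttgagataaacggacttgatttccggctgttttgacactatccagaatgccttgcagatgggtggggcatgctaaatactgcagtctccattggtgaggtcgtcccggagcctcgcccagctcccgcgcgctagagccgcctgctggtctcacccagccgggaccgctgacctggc

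The promoter set used held no entry for any of the 7 genes, so the windows above were used instead. In these windows with the 50 bases after the coding start, 5 motifs were searched on both strands. They were the TATA box TATANA, the octamer ATTTGCAT that POU2F1 (Oct-1) binds in distal elements, the core of the ZNF143 site (CCCA and ATGC with 2 bases between them), and for steroid receptors the hexamer AGAACA and the palindrome of GNACA and TGTNC with 3 bases between them, which can overlap the hexamer. The window beside RNU6-9 held the octamer, 217 bases from the lower end of that gene, on the strand opposite to the one printed. It also held a TATA match 99 bases and a receptor hexamer 164 bases from that end. Beside RN7SK, a ZNF143 core lay 144 bases from the lower end of the gene. The window beside RNU6-2 held no match, and the receptor palindrome matched in none of the windows. Among all 35116 promoter windows of the same length, 1.77% held the octamer, 1.73% the ZNF143 core, 19.0% the TATA box, 14.8% the receptor hexamer and 0.39% the palindrome. These matches describe letters and do not show binding. The bases nearest to the small RNA genes, 148 at RNU6-2, 46 at RNU6-9 and 85 at RN7SK, were not searched. Because the strands of these genes are not given, a window may lie upstream or downstream of the gene. A match or its absence thus does not describe the promoters of the 7 genes.

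POLR3A regions covered the whole body of all 7 genes under vehicle and under P4. By the same rule, 20.4% of all annotated genes had a POLR3A region under vehicle and 23.5% under P4. Most annotated genes are far longer than these, and among the 15918 genes of at most 1 kb the shares were 5.28% and 5.94%. The regions at the 7 genes ranked near the top of their lists, at a median percentile, by −log10 q, of 99.7 (vehicle) and 99.8 (P4).

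RN7SK, the gene of the 7SK RNA, had the strongest region of the 7 in both lists. Its vehicle region had −log10 q of 616.5 and its P4 region 586.3, with folds of 94.1 and 82.1. It ranked 4th of all POLR3A regions under vehicle and 3rd under P4. RNU6ATAC had −log10 q of 537.2 and 539.9, with folds of 71.8 and 67.8, at ranks 61 and 40. By fold, RNU6ATAC thus stood within the range of the U6 genes in both lists. By −log10 q it stood above every U6 gene under vehicle, and under P4 above all of them but RNU6-2 (550.4).

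Among the U6 genes, RNU6-8 reached 529.4 (vehicle) and 502.8 (P4) in −log10 q (folds 69.4 and 55.5). RNU6-2 had 497.1 and 550.4 (folds 61.8 and 78.9), RNU6-9 had 449.7 and 470.2 (folds 76.02 and 69.72), and RNU6-1 had 424.8 and 417.9 (folds 59.9 and 46.1). RNU6-7 was the lowest of the 7 genes in both lists, at 148.5 and 97.6 with folds of 27.8 and 15.9. Even so it ranked 234th under vehicle and 265th under P4, at percentiles 99.2 and 99.4 of the lists.

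In order of −log10 q under vehicle, the genes ran RN7SK, RNU6ATAC, RNU6-8, RNU6-2, RNU6-9, RNU6-1, RNU6-7. Under P4 the order was the same except that RNU6-2 stood above RNU6ATAC and RNU6-8. With 1 list per group, neighbours in this order cannot be separated, and the lists differ in length, so a higher or lower value under P4 measures no change. By fold, RNU6-9 ranked above every other U6 gene under vehicle (rank 61) and RNU6-2 did so under P4 (rank 17).

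**Figure D1:**
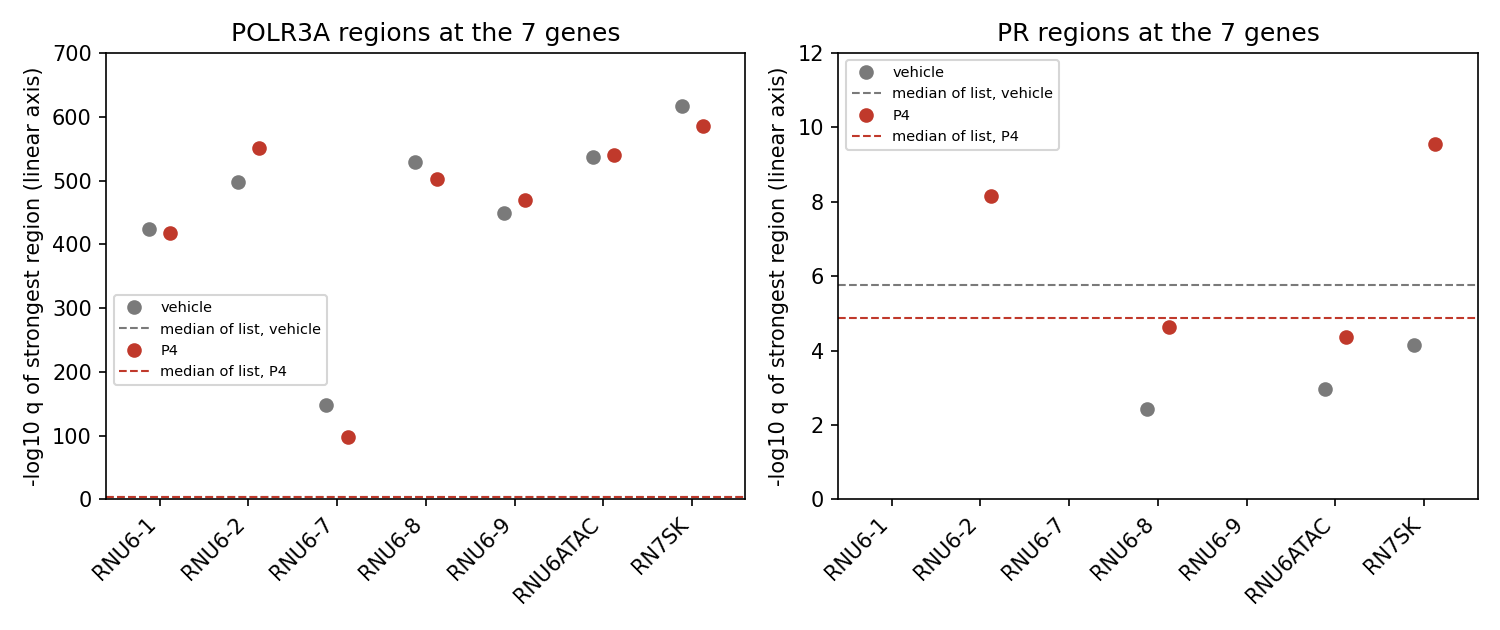
Strength of the strongest region within 100 bp of each gene, as −log10 q on a linear axis, for POLR3A (left) and PR (right), under vehicle (grey) and P4 (red); each point is 1 region of 1 list and dashed lines are the medians of all regions of that list. POLR3A points lie between 97.6 and 616.5, while PR points lie between 2.43 and 9.55 and are missing for RNU6-1, RNU6-7 and RNU6-9.

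RNU6-7 and RNU6-8 form a pair with 1011 bases between their bodies, and each had a POLR3A region of its own. The gap between the 2 regions was 380 bases under vehicle and 456 under P4. The lists thus hold a separate call for each gene of the pair. U6 genes are near-identical in their transcribed sequence, and how reads that match several copies were placed is not given in the sources used here. The regions at the U6 genes reached past the transcribed body by 236 to 559 bases under vehicle and by 189 to 674 under P4, so that each took in flanking sequence on both sides.

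POLR3A regions at the 7 genes were wide, with summits in or next to the gene bodies. Their median width was 935 bp under vehicle and 891 bp under P4, against 280 and 276 bp for all regions of those lists. The narrowest was 587 bp, at RNU6-7 under vehicle, and the widest 1175 bp, at RN7SK under vehicle. Of the 14 POLR3A summits, 13 fell inside the transcribed body, and the other, at RNU6ATAC under P4, fell 7 bp past its end. The regions themselves were often lopsided, as at RNU6-7 under P4, which reached 674 bp below the gene and 189 bp above it. The vehicle and P4 summits of a gene were 2 to 39 bp apart, closest at RNU6-7 and farthest at RN7SK.

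PR regions were found at fewer of these genes, in the lower part of their list under vehicle and on both sides of its median under P4. Under vehicle, 3 of the 7 genes had one, RNU6-8, RNU6ATAC and RN7SK, and under P4 these 3 and RNU6-2 had one. By the same rule, 20.7% of all annotated genes had a PR region under vehicle and 37.3% under P4, and among genes of at most 1 kb the shares were 2.61% and 6.71%. The members' 42.9% and 57.1% were thus above both backgrounds, on counts of 3 and 4 genes that were not tested.

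At RN7SK, the PR region had −log10 q of 4.15 and a fold of 3.73 under vehicle, and 9.55 and 5.16 under P4. RNU6-8 had 2.43 (fold 2.87) and 4.63 (fold 3.38), and RNU6ATAC had 2.98 (fold 3.24) and 4.36 (fold 3.45). RNU6-2 had no PR region in the window under vehicle and one of 8.14 (fold 4.54) under P4. All 3 vehicle values lay under the median of the PR vehicle list, 5.75, at percentiles 11.7 to 34.8. Under P4, RNU6-2 and RN7SK lay above the list's median of 4.87, at percentiles 68.2 and 71.4, and RNU6-8 and RNU6ATAC below it, at 48.1 and 44.0.

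RNU6-1, RNU6-7 and RNU6-9 had no PR region within 100 bp in either list. Under P4 a PR region ended 154 bp from RNU6-7, with −log10 q of 7.07, and another began 328 bp from RNU6-9, with 1.43. Both lay outside the window but overlapped the POLR3A region of that gene under P4. The one by RNU6-7 was stronger than the P4 regions counted at RNU6-8 (4.63) and RNU6ATAC (4.36). The nearest to RNU6-1 was 2183 bp away, with 2.60. The region by RNU6-7 passes the median of its list and the others do not.

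The count of PR genes depended on the length and threshold of the lists. At −log10 q of at least 5, none of the 7 genes had a PR region under vehicle and 2 had one under P4, RNU6-2 and RN7SK. With both PR lists cut to 38933 regions by −log10 q, 3 genes had one under vehicle and the same 2 under P4, which turns the direction of the difference. The shares of all genes at these cuts are not given. These counts thus show how the call depends on the lists and cannot be set against a background.

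PR summits mostly lay outside the gene bodies. Of the 7 PR regions, 2 had their summit inside the body, both at RN7SK, at positions 206 and 226 of its 332 bp counted from the lower end. At RNU6ATAC the summits lay 49 bp (vehicle) and 75 bp (P4) outside the body on the lower side, and at RNU6-8 they lay 122 and 27 bp outside on the lower side. At RNU6-2 the P4 summit lay 75 bp outside on the higher side. Summits of the 2 antibodies under the same treatment were 60 to 207 bp apart, and 6 of the 7 PR regions fell wholly inside the POLR3A region of that treatment. The exception was RNU6-8 under P4, where the POLR3A region held 72.0% of the PR region. Some overlap was fixed by the counting rule, since each POLR3A region reached at least 189 bp past the body on both sides. Each PR region counted was also narrower than the POLR3A region there, so the nesting does not test for a shared site. Under P4, PR regions just outside the 100 bp window that met the POLR3A region of a gene overlapped it only in part. They are not in this count.

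**Figure D2:**
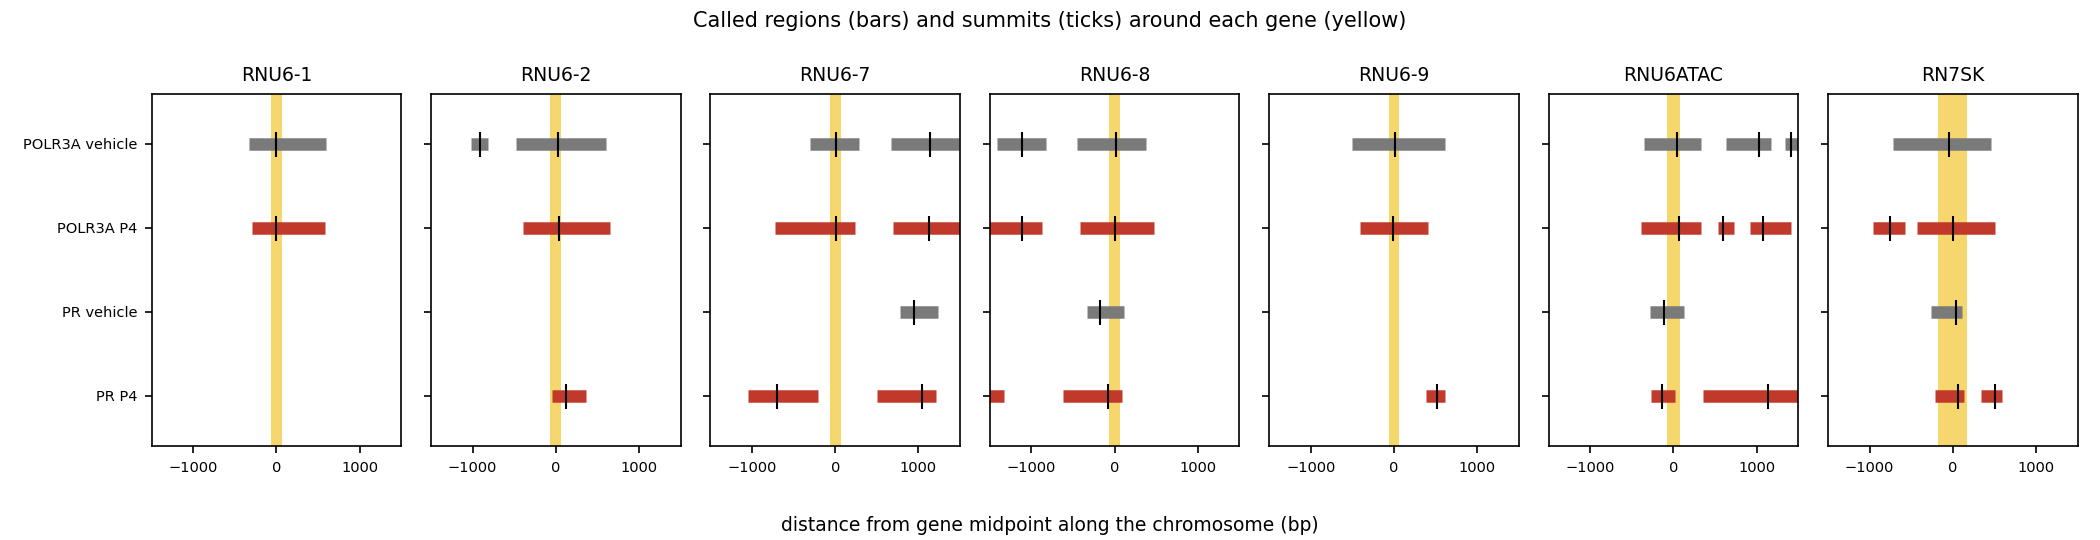
Called regions (bars) with their summits (ticks) for POLR3A and PR under vehicle (grey) and P4 (red), by distance in bp from the midpoint of each gene along the chromosome; the gene body is yellow and each panel spans 1.5 kb on either side. POLR3A bars cover every body in both treatments, while PR bars reach the body at RNU6-2 (P4), RNU6-8, RNU6ATAC and RN7SK.

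Within 5 kb of the body, all 7 genes had a POLR3A region in each list, 5 had a PR region under vehicle and all 7 under P4. The shares of all annotated genes by that rule were 28.8% and 33.7% for POLR3A and 31.0% and 52.3% for PR. RNU6-7 and RNU6-8 lie within 5 kb of each other and share these regions. Apart from their regions, each other POLR3A region in this wider window had −log10 q of at most 9.41. That highest one, beside RNU6ATAC under P4, lay at percentile 94.1 of its list. Around RNU6ATAC there were 2 further POLR3A regions under vehicle and 3 under P4, all on the higher side, and a PR region of 1150 bp began 293 bp from its end under P4, with −log10 q of 7.57. RN7SK had a flanking PR region 172 bp from its higher end under P4, with 6.53, and no such region under vehicle. A separate POLR3A region, with 3.66, ended 409 bp below RN7SK under P4, while under vehicle the main POLR3A region of the gene itself reached 553 bp below it.

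Annotated copies of these genes, annotated as pseudogenes, carried few regions. Of 1269 U6 copies, 5 had a POLR3A region under vehicle (0.394%) and 9 under P4 (0.709%), and 5 and 17 had a PR region (0.394% and 1.34%). Of 292 copies of 7SK, a POLR3A region was at 7 in each list (2.40%), and a PR region at 1 under vehicle (0.342%) and 5 under P4 (1.71%). None of the 41 U6atac copies had POLR3A, and 1 had PR under P4 (2.44%). Among genes of at most 1 kb the shares were higher, 5.28% and 5.94% for POLR3A and 2.61% and 6.71% for PR. The strongest POLR3A regions at copies under vehicle were at RN7SKP71 (−log10 q 52.3), RN7SKP203 (38.0) and RN7SKP80 (14.5), none of which had PR in either list. RN7SK itself had 616.5 in that list.

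Other RNA polymerase III genes with upstream promoters also carried POLR3A regions. All 7 listed, RMRP and RPPH1 (the RNA parts of RNase MRP and RNase P), the Y RNA genes RNY1, RNY3, RNY4 and RNY5, and the selenocysteine tRNA gene TRU-TCA1-1, had a POLR3A region under each treatment, with a median −log10 q of 316.8 and 362.6, against 497.1 and 502.8 for the U6, U6atac and 7SK genes. RNY4 stood apart at 16.0 and 28.1, with summits 76 and 58 bp outside the gene, below all of the U6, U6atac and 7SK genes. PR was at 1 of the 7 under vehicle, RNY3 (4.92), and at 4 under P4, RNY3 (24.6), RNY1 (9.17), TRU-TCA1-1 (4.59) and RMRP (3.36). The PR summits at RNY3 lay 160 bp (vehicle) and 279 bp (P4) outside the gene. Under P4 that of RMRP lay 345 bp and that of TRU-TCA1-1 18 bp outside, while that of RNY1 was in the body.

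Small nuclear RNA genes that RNA polymerase II transcribes from a related promoter also had POLR3A regions, at a lower median strength. Of 20 such genes, 18 had POLR3A under each treatment, all but RNVU1-1 and RNU5A-1, with a median −log10 q of 39.7 and 39.5. At RNU5B-1, RNU5D-1, RNU5E-1, RNU5F-1 and RNU7-1 the POLR3A summits lay 89 to 264 bp outside the gene in both lists. At the others they lay in the body under vehicle. Under P4 the exceptions were RNU1-28P (32 bp outside), RNU4-1 and RNU4-2. The last 2 share a POLR3A region of 29.4 under P4, with its summit 21 and 1169 bp from them. Some were above RNU6-7, the lowest U6 gene: 3 in the vehicle list, led by RNU1-28P (186.6), and 6 in the P4 list, led by RNU1-27P (200.9). PR was at 8 under vehicle and 14 under P4, and its regions there were stronger than at the U6, U6atac and 7SK genes, with medians of 11.6 and 18.5 against 2.98 and 6.39. The strongest PR values were those of RNU2-1 (58.1 and 236.8), RNU2-2 (48.8 and 155.3) and RNU1-28P (41.9 and 120.3). The RNU1-28P regions reached the window from a site over 1 kb away, with summits 1084 and 1107 bp from the gene, while those of RNU2-1 had their summits in the body and those of RNU2-2 lay 124 and 139 bp outside it. Next under vehicle was RNU1-1 (15.2), and under P4 RNU4-1 and RNU4-2, which share a region of 32.0 with its summit 1517 and 183 bp from them. U1, U2 and U4 genes occur in near-identical copies, so reads may not be assigned to single genes with confidence. Of the genes with POLR3A, PR was at 42.9% and 57.1% of the U6, U6atac and 7SK genes, at 14.3% and 57.1% of the other upstream-promoter genes and at 44.4% and 77.8% of these small nuclear RNA genes. Among all genes of at most 1 kb with POLR3A the shares were 29.1% and 51.0%, so that under P4 the U6, U6atac and 7SK genes lay near this background.

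**Figure D3:**
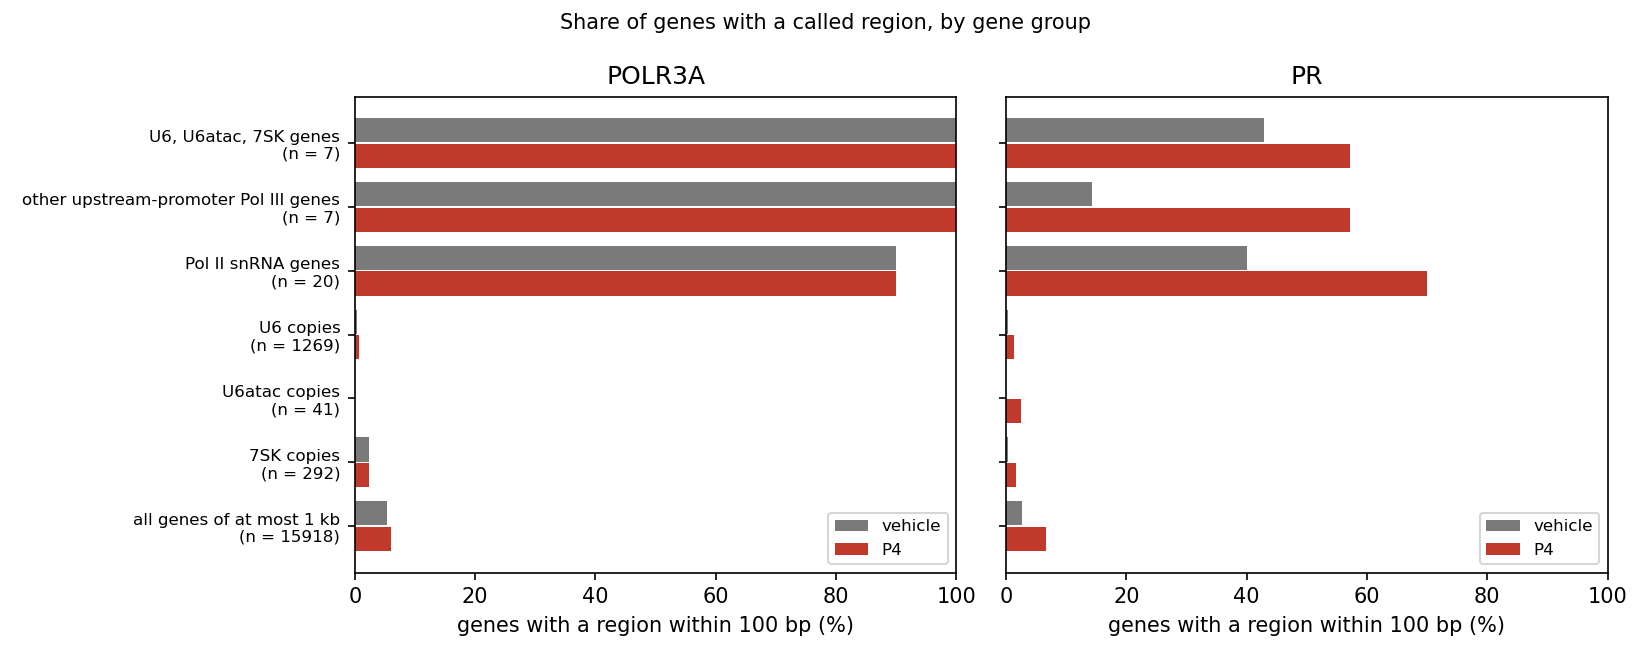
Share of genes, in percent, with a region within 100 bp of the body, for POLR3A (left) and PR (right) under vehicle (grey) and P4 (red), by gene group with the number of genes in each. POLR3A reached 100% of the 7 genes and of the 7 other upstream-promoter genes and at most 2.40% of the annotated copies.

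Protein-coding genes with related roles were read over their span and the 1 kb to either side of it. They were chosen as promoter factors, for the particles of these RNAs, or for the minor spliceosome. Not every product is taken to make or bind these RNAs. Of 41 such genes, 27 had POLR3A under vehicle and 25 under P4, or 65.9% and 61.0%, against 44.2% and 49.1% of all protein-coding genes. PR was at 19 and 37, or 46.3% and 90.2%, against 44.7% and 70.8%. The PR share under vehicle was near its background. PR regions were at 18 of the 41 genes under P4 alone, or 43.9%, against 27.3% of all protein-coding genes, and at none under vehicle alone, against 1.23%. POLR3A regions were at 4 under P4 alone, or 9.76%, against 13.4%, and at 6 under vehicle alone, or 14.6%, against 8.58%. The PR list under P4 is the longer one, and the part of its length in these counts was not tested. The median POLR3A −log10 q was 4.07 (vehicle) and 3.87 (P4) at promoter factor genes and 8.69 and 6.12 for the 7SK particle. It was 3.80 and 4.42 for the U6 particle and 4.19 and 5.21 for U6atac and the minor spliceosome. The medians of all POLR3A regions were 3.53 and 3.22. Some POLR3A summits lay inside the gene, as at MEPCE, and others outside, as at CDK9 (1083 and 1096 bp).

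By role, 5 of the 11 promoter factor genes had PR under vehicle and 10 under P4, SNAPC2 being the exception. Over the genes of this group with PR, the median −log10 q was 5.83 under vehicle and 11.5 under P4. ZNF76, a relative of ZNF143, had −log10 q of 5.83 and 49.4, with summits inside the gene. For the 7SK particle, 3 of 7 genes had PR under vehicle and 7 under P4. The median PR −log10 q of the group was 3.44 and 4.6, under the medians of both lists (5.75 and 4.87). Its strongest, HEXIM1, which inhibits P-TEFb, had no region under vehicle and 25.6 under P4, with the summit 609 bp outside the gene. MEPCE, which caps 7SK RNA, had the strongest POLR3A region of that group under vehicle, 20.6, while RN7SK had 616.5.

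Of 15 genes of the U6 particle, 8 had PR under vehicle and 13 under P4, with a median −log10 q of 5.64 and 5.93. LSM4, a subunit of the ring that binds the end of U6 RNA, had the strongest PR regions of all 41 genes, 54.5 under vehicle and 234.8 under P4. USB1, which trims that end, had a PR region of 55.6 under P4 alone. The LSM4 summits lay 796 and 818 bp outside the gene, and the USB1 summit 376 bp outside. Of 8 genes of U6atac and the minor spliceosome, 3 and 7 had PR, with a median −log10 q of 2.98 and 6.22. ZRSR2, which helps to recognise minor introns, had 69.7 under P4 alone, with its summit inside the gene.

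The genes of at most 1 kb most like the 7 in their pattern were sought by the distance between percentiles of −log10 q over the 4 lists, with 0 for no region, from the members' median (99.7 and 99.8 for POLR3A, 0 and 44.0 for PR). This is a composite of separate medians, and no single gene of the 7 has it: RNU6-2, the only one with PR under P4 alone, had percentile 68.2. Of 15911 genes more than 5 kb away, the nearest were the 5S ribosomal RNA gene RNA5S6 (distance 0.53), a copy in a repeated array, and the tRNA genes TRM-CAT3-2 (0.73) and TRE-CTC1-1 (0.89). Each had POLR3A above percentile 99.3 in both lists, no PR under vehicle and PR at percentiles 43.3 to 44.9 under P4.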

How the data were processed

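Peak lists were deposited by the authors, 1 for each antibody and treatment. The submitters' processing notes name hg38, cutadapt, Bowtie2 and MACS2, while versions, pooling, control and duplicate handling are not given in the sources used here. Each deposited row gives a region, its summit, a fold enrichment (ratio), a −log10 q and a display score, which is the authors' −log10 q times a constant. The −log10 q and fold were used, on chromosomes 1 to 22 and X. The depth is unknown.

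The members and lists of genes were chosen with earlier results of these data known. Genes came from the RefSeq table of GRCh38.p14, kept on each chromosome until start positions fell back (58419 genes kept, 679 left out). Overlap meant at least 1 bp. The code was checked on simulated regions and against bedtools 2.31.1, with equal counts for 4 of 4 lists. Percentiles are within a list. Python 3.11.15 with pandas 2.3.3 was used.

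All 7 members are named. Copies were named by POLR3A −log10 q under vehicle (the 3 highest), genes of the other lists by PR −log10 q (all if 5 or fewer, otherwise the 4 highest), and others named were chosen after their values were seen. Alternatives raised the −log10 q threshold to 5 or 10, or used no margin or 500 bp, summits, equal list lengths, ranking by fold and the region with the nearest summit. Counting RNU6-7 and RNU6-8 as 1 locus was chosen after seeing the data.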

Additional observations from a re-analysis of the deposited data

How the results depend on the processing

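The count of 7 genes with POLR3A under each treatment was the same under every alternative except when RNU6-7 and RNU6-8 were counted as 1 locus, which gave 6 of 6 loci. PR counts moved. At −log10 q of at least 5 the 3 genes with PR under vehicle became 0 and the 4 under P4 became 2, and at −log10 q of at least 10 both became 0. With lists of equal length the P4 count was 2, since that cut kept regions of −log10 q of 7.39 or more. A margin of 500 bp gave 3 and 6, and a summit in the window 2 and 4. The shares of all genes under these alternatives are not given, so the counts cannot be set against a background. Over all alternatives, 23 of 28 counts stayed within 1.5 times the main count and 5 did not. Ranked by fold in place of −log10 q, the median percentile became 30.9 in place of 19.8 for PR under vehicle, 58.8 in place of 58.1 for PR under P4, and 99.9 in place of 99.8 for POLR3A under P4. The cause was not tested. No paired analysis was possible because there is 1 list per group and none per replicate, and for the same reason no replicate could be left out. Depth is unknown, so an absent region means only that none was called.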

Other observations

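Some annotated U6 copies lay at PR regions far stronger than any at the 7 genes. They were named after their values were seen, and only 0.394% (vehicle) and 1.34% (P4) of the U6 copies had a PR region. RNU6-450P, 5183 bp from VMP1 on chromosome 17, had PR regions of −log10 q 131.8 (vehicle) and 316.7 (P4), with POLR3A values of 8.36 and 5.04. Its PR summits lay 251 and 262 bp outside the copy. RNU6-1013P had PR values of 55.8 and 103.5, with summits 126 and 110 bp outside, RNU6-572P had 37.3 and 110.0, with summits 307 and 292 bp outside, and neither had POLR3A in either list. RNU6-90P, within TMOD3, had PR of 104.1 under P4 alone, with its summit 328 bp outside, and no POLR3A. At RNU6-1055P the PR summits fell inside the copy, with values of 13.8 and 97.2, and POLR3A was present under P4 alone, at 1.80. At the U6, U6atac and 7SK genes the highest PR value was 9.55, at RN7SK under P4. Whether these regions relate to the U6 sequence was not tested.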
